A study of Homo sapiens with 6 samples.

Results

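The genes described here are 10 regulators of the passage from G1 into S phase, namely the D cyclins CCND1 and CCND3, the E cyclins CCNE1 and CCNE2, the kinases CDK4, CDK6 and CDK2, the retinoblastoma gene RB1, the transcription factor E2F1 and the phosphatase CDC25A. They were taken by gene name from a table of 50868 genes, and all 10 were found and passed the filter on low values. The study transfected HCT116, a human colorectal cancer cell line, with the empty vector pcDNA3.1(+) (pcCon) or with a YY2 overexpression vector (pcYY2), and performed RNA-Seq on 3 samples of each to find genes that respond to YY2. Both groups are wild-type HCT116 cells that received a plasmid, so that the groups differ in the YY2 insert, and the share of cells that took up a plasmid is not given in the sources used here. The text used here does not say whether the 3 samples of a group came from separate cultures, so the p values measure the spread between these samples, which may be technical.

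In G1, D cyclins bind CDK4 and CDK6 and start the phosphorylation of RB1, the pocket protein that holds E2F factors silent. Released E2F factors, E2F1 among them, drive the genes of DNA replication and also CCNE1, CCNE2 and CDC25A. The E cyclins then activate CDK2, from which CDC25A removes inhibitory phosphates, and this completes the phosphorylation of RB1. In colorectal cancer cells, CCND1 lies downstream of the Wnt and growth factor pathways.

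Of the 10 genes, 4 were lower in pcYY2 than in pcCon, namely the E cyclins CCNE1 and CCNE2, the D cyclin CCND1 and its kinase CDK6, each to between 0.732-fold and 0.837-fold of pcCon. Among all 12015 tested genes, 4.85% were called lower and 4.52% higher. None of the 10 was called higher by edgeR, limma or DESeq2. With all samples, 0 had a positive change at an unadjusted p under 0.05 in edgeR. Without pcCon sample 1, CCND3 had such a change (log2 fold change 0.47), and without pcYY2 sample 2, RB1 did (0.15), but neither was called. CDK4, CDK2, RB1 and CCND3 did not pass the test. E2F1 and CDC25A had lower values in every pcYY2 sample than in any pcCon sample, but their adjusted p values of 0.0703 and 0.143 did not pass the threshold of 0.05 that the study set for its FDR. The median log2 fold change of the 10 genes was -0.24, against 0.0020 over all tested genes. The 10 genes were chosen with earlier results of these data known, so these counts and this median do not describe an independent set. In a bulk sample, fewer cells in a phase that expresses a gene and less RNA of that gene per cell cannot be told apart.

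**Figure D1:**
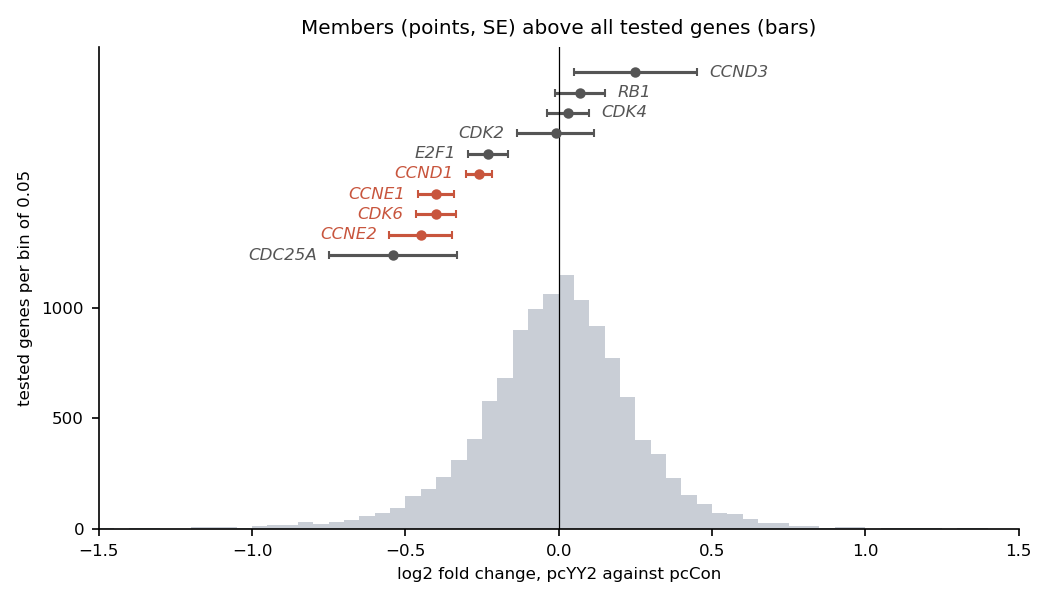
Log2 fold change of each of the 10 genes, pcYY2 against pcCon, as points with the standard error, above a histogram of the log2 fold changes of the 12015 tested genes in bins of 0.05, shown from -1.5 to 1.5 (the vertical axis counts genes and applies to the bars only). Red marks an adjusted p of 0.05 or less in edgeR's quasi-likelihood test. The 4 red genes lie between -0.45 and -0.26, while CDC25A lies lowest at -0.54 with the widest error of the 10.

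The libraries held between 15158360 and 29572882 counted reads, and the deepest was pcYY2 sample 2. No member had fewer than 290 reads in a sample. YY2 itself, the transfected gene, had an FPKM (fragments per kilobase of gene, scaled to library size) of 2.22, 2.52 and 1.73 in pcCon and 11.6, 11.1 and 11 in pcYY2, where plasmid and chromosomal reads cannot be told apart. The epithelial marker EPCAM had a mean FPKM of 70.4 in pcCon and 74.9 in pcYY2. Of 7 epithelial markers 6 were tested, and KRT8 and KRT19 were higher in pcYY2 by 0.67 and 0.60 on the log2 scale, while VIL1 had 0 to 2 reads in a sample. Of 9 markers of fibroblasts, immune cells and endothelium, COL1A1 alone reached the filter (mean FPKM 2.04 in pcCon and 2.49 in pcYY2, not called), and COL1A2, DCN and LUM had 0 reads in every sample. CD68 was not tested but had 29 to 85 reads in a sample, and its FPKM was higher in every pcYY2 sample (mean 0.689) than in any control (mean 0.392). PTPRC reached 69 reads in pcYY2 sample 2 and 1 to 15 in the others, while CD3E, PECAM1 and VWF had at most 27. The FPKM summed over these 9 markers was 2.41 to 2.65 in pcCon and 2.98 to 3.73 in pcYY2, and that over the 7 epithelial markers was 302 to 314 and 394 to 428. The part of these marker levels in the results was not tested.

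The D cyclins carry growth signals to the cell cycle. CCND1 (ENSG00000110092, GRCh38 chromosome 11 from 69641087 to 69654474, plus strand) had an FPKM of 57.7, 59.0 and 59.2 in pcCon and 49.6, 46.4 and 49.9 in pcYY2. All pcYY2 samples lay below all pcCon samples, and the gap exceeded the spread within either group. The mean fell from 58.7 ± 0.841 (SD, n = 3) to 48.6 ± 1.95, a log2 fold change of -0.26 with a standard error of 0.0412 (edgeR quasi-likelihood, adjusted p = 0.0165). The gene rested on 5349 to 9650 reads per sample, the most of the 10. Its call was lost when pcCon sample 1, 2 or 3 was left out, with adjusted p values of 0.054, 0.0698 and 0.0635, although the log2 fold change stayed between -0.27 and -0.25. ORAOV1, a gene on the opposite strand that overlaps CCND1, had a mean FPKM of 0.765 in pcCon and 0.952 in pcYY2.

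CCND3 (ENSG00000112576, chromosome 6 from 41934933 to 42050357, minus strand) is the D cyclin known best from blood cells and muscle. Its FPKM was 2.07, 1.49 and 1.27 in pcCon and 1.94, 2.18 and 1.57 in pcYY2. The groups overlapped, with pcCon sample 1 above 2 of the pcYY2 samples. The log2 fold change of 0.25 had a standard error of 0.2 and an adjusted p of 0.447. It was 0.47 without pcCon sample 1, 0.11 without pcCon sample 3 and 0.13 without pcYY2 sample 2, none of them called. The third D cyclin, CCND2, had between 0 and 12 reads in a sample and was not tested. Summed over the 3 D cyclins, the FPKM was 59.8, 60.5 and 60.5 in pcCon and 51.5, 48.6 and 51.5 in pcYY2, which is 0.838-fold in the means. The sum did not overlap between groups and gave an exact two-sided permutation p of 0.1, the smallest that 3 samples against 3 allow.

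The E cyclins bind CDK2 at the end of G1. CCNE1 (ENSG00000105173, chromosome 19 from 29811898 to 29824308, plus strand) had an FPKM of 9.10, 8.73 and 9.05 in pcCon and 6.57, 6.83 and 6.70 in pcYY2. Both groups were tight, and no value of one came near the other. The mean fell from 8.96 ± 0.199 (SD, n = 3) to 6.70 ± 0.13, a log2 fold change of -0.40 with a standard error of 0.0594 (edgeR quasi-likelihood, adjusted p = 0.0133). By p it ranked 233 among the 12015 tested genes, before the other 9 genes described here. The call was lost without pcCon sample 1 (adjusted p = 0.053), pcCon sample 3 (0.0532) or pcYY2 sample 3 (0.0502), with a log2 fold change of -0.40 in each.

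CCNE2 (ENSG00000175305, chromosome 8 from 94879770 to 94896678, minus strand) had an FPKM of 6.57, 7.13 and 6.05 in pcCon and 5.02, 4.18 and 5.15 in pcYY2. The groups did not overlap, but the spread within each was wider than for CCNE1. The log2 fold change was -0.45 with a standard error of 0.102 (edgeR quasi-likelihood, adjusted p = 0.0414), close to the threshold, and the call was lost whichever of the 6 samples was left out (adjusted p from 0.065 without pcYY2 sample 1 to 0.123 without pcCon sample 2). CCNE2 shares parts of its locus with INTS8 and NDUFAF6 on the opposite strand, and whether the counting used strand is not given in the sources used here. INTS8 had a log2 fold change of -0.01 at an adjusted p of 0.963 and NDUFAF6 of 0.26 at an adjusted p of 0.145, neither called. Another overlapping gene on the opposite strand, RP11-347C18.5, was not tested and had a mean FPKM of 0.174 in pcCon and 0.537 in pcYY2.

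Taken as a sum, the E cyclins had an FPKM of 15.7, 15.9 and 15.1 in pcCon and 11.6, 11 and 11.8 in pcYY2, so that the pcYY2 mean was 0.739-fold (exact permutation p = 0.1). CCNE1 made up 57.7% ± 2.46 (SD, n = 3) of this sum in pcCon and 58.4% ± 3.14 in pcYY2, and the shares overlapped (exact permutation p = 0.7). The ratio of summed D cyclins to summed E cyclins was 3.82, 3.82 and 4.01 in pcCon and 4.45, 4.41 and 4.34 in pcYY2, without overlap (exact permutation p = 0.1). This ratio was not a planned comparison, and it depends on the gene lengths by which FPKM is divided.

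**Figure D2:**
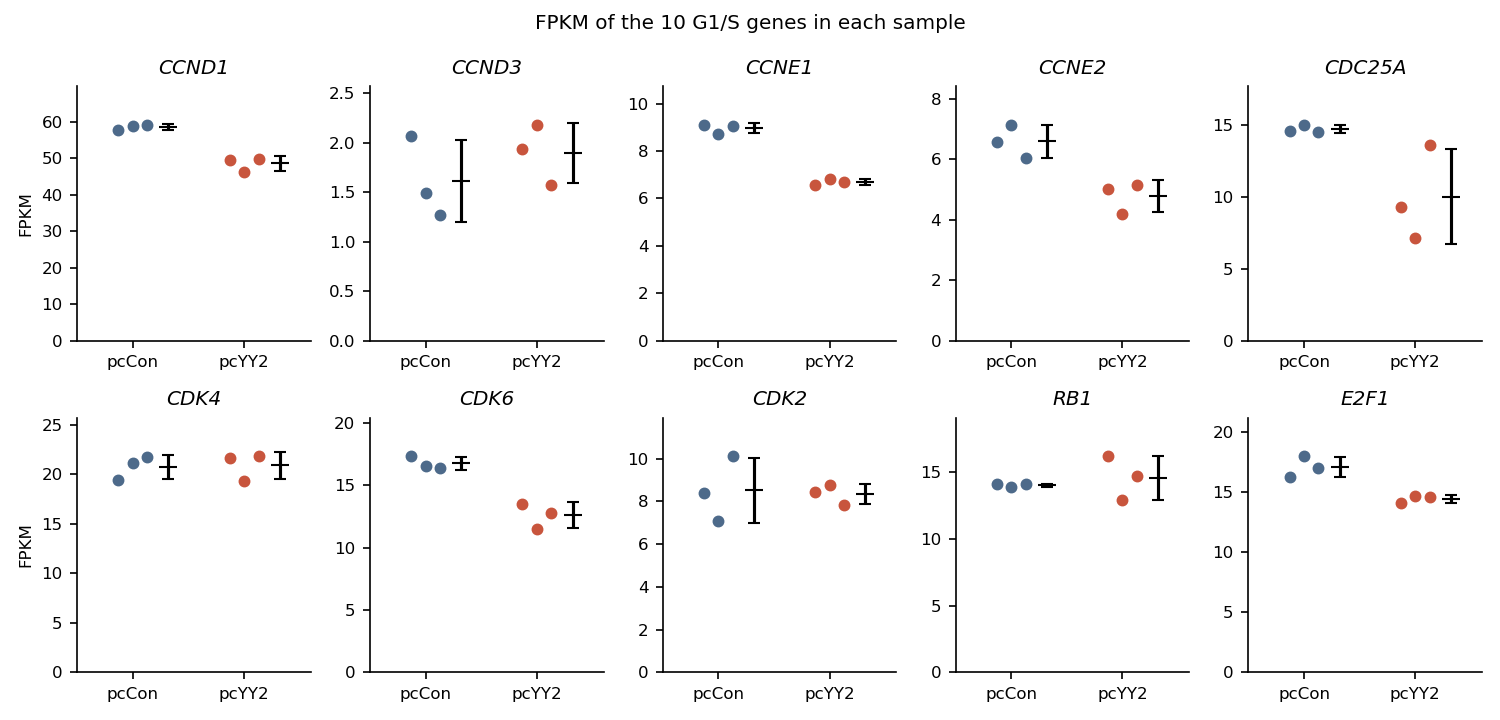
FPKM of each of the 10 genes, 1 panel per gene with an axis from 0. Points are the samples 1 to 3 of pcCon (blue) and pcYY2 (red) from left to right, and the black bar beside them is the mean with the SD. CCND1, CCNE1, CCNE2, CDK6, E2F1 and CDC25A show no overlap between the groups, and the third pcYY2 sample of CDC25A stands apart at 13.6.

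CDK4 and CDK6 are the kinase partners of the D cyclins. CDK6 (ENSG00000105810, chromosome 7 from 92604921 to 92836594, minus strand) had an FPKM of 17.3, 16.5 and 16.4 in pcCon and 13.5, 11.5 and 12.8 in pcYY2. Every pcYY2 sample lay below every pcCon sample. The mean fell from 16.7 ± 0.52 (SD, n = 3) to 12.6 ± 1.03, a log2 fold change of -0.40 with a standard error of 0.0657 (edgeR quasi-likelihood, adjusted p = 0.0187). The call was lost without pcCon sample 1 (0.0657), 2 (0.0631) or 3 (0.0551) and without pcYY2 sample 3 (0.0565), each an adjusted p from edgeR, with log2 fold changes from -0.41 to -0.37.

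CDK4 (ENSG00000135446, chromosome 12 from 57747727 to 57756013, minus strand) had an FPKM of 19.4, 21.1 and 21.7 in pcCon and 21.6, 19.3 and 21.8 in pcYY2. The values of the groups were interleaved. Its log2 fold change was 0.03 with a standard error of 0.0685 and an adjusted p of 0.82. CDK6 as a share of the summed FPKM of both kinases was 47.2%, 43.9% and 43.1% in pcCon and 38.4%, 37.3% and 37.0% in pcYY2. This share, a comparison chosen after the values were seen, is free of library scaling. It did not overlap between the groups (exact permutation p = 0.1), with means of 44.7% ± 2.2 (SD, n = 3) and 37.6% ± 0.742. The summed FPKM of CDK4 and CDK6 was 37.4 ± 0.686 in pcCon and 33.5 ± 2.4 in pcYY2, with an exact permutation p of 0.1.

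CDK2 (ENSG00000123374, chromosome 12 from 55966769 to 55972784, plus strand) is the partner of the E cyclins and later of cyclin A. Its FPKM was 8.41, 7.07 and 10.1 in pcCon and 8.44, 8.75 and 7.84 in pcYY2. The pcCon samples alone spanned more than the whole pcYY2 group. The log2 fold change was -0.01 with a standard error of 0.126 and an adjusted p of 0.955, and this error was wider than that of CDK4 or CDK6. PMEL, which overlaps CDK2 on the opposite strand, averaged an FPKM of 0.352 in the controls and 0.353 in pcYY2. For CDK4, the overlapping genes on the opposite strand were TSPAN31, which averaged 0.359 and 0.405, and a gene listed as 9-Mar (ENSG00000139266), which averaged 4.06 and 4.65 with a log2 fold change of 0.21 and was not called.

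**Figure D3:**
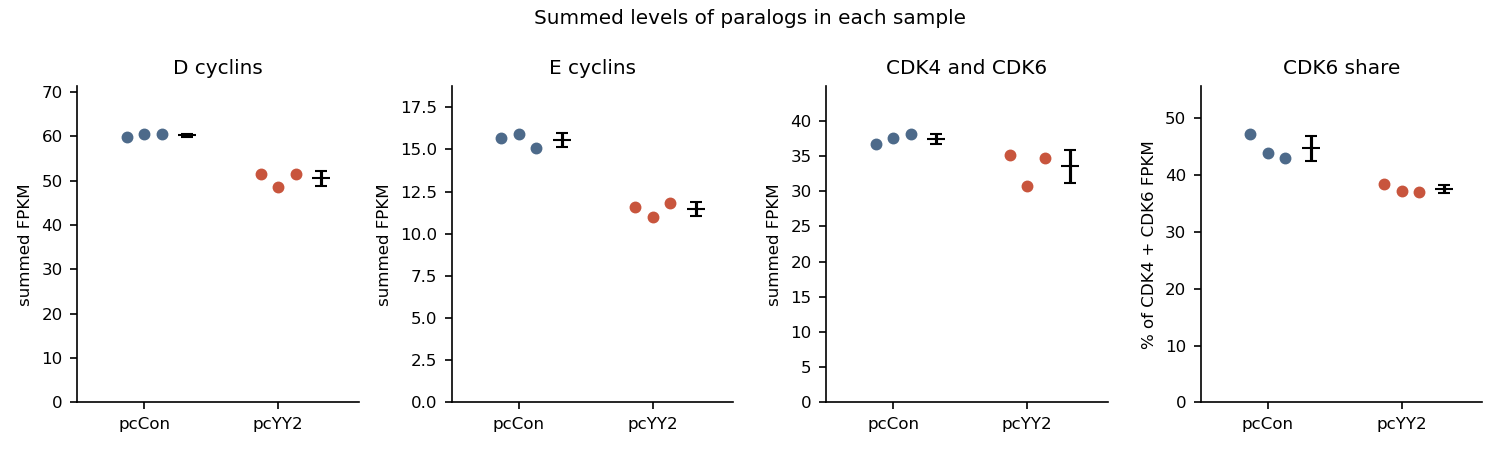
Summed FPKM of the D cyclins (CCND1, CCND2, CCND3), of the E cyclins (CCNE1, CCNE2) and of CDK4 with CDK6, and the share of CDK6 in the latter sum in percent. Points are the samples 1 to 3 of pcCon (blue) and pcYY2 (red), with mean and SD in black. The E cyclin sums are between 15.1 and 15.9 in pcCon and between 11 and 11.8 in pcYY2, and the CDK6 share is above 43% in pcCon and below 39% in pcYY2.

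RB1 (ENSG00000139687, chromosome 13 from 48303751 to 48481986, plus strand) had an FPKM of 14.1, 13.9 and 14.1 in pcCon and 16.2, 12.9 and 14.7 in pcYY2. The pcCon samples were almost equal, and the pcYY2 samples lay on both sides of them. The log2 fold change was 0.07 with a standard error of 0.0814 and an adjusted p of 0.626. Since CDK4 and CDK6 act on RB1 through phosphorylation, its activity cannot be read from RNA.

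E2F1 (ENSG00000101412, chromosome 20 from 33675683 to 33686404, minus strand) had an FPKM of 16.3, 18.0 and 17.0 in pcCon and 14.1, 14.7 and 14.6 in pcYY2. The groups did not overlap. The log2 fold change was -0.23 with a standard error of 0.0643, and its adjusted p of 0.0703 from edgeR did not pass, nor did that of DESeq2 (0.124). Of 14 alternative fits 2 called it, both with limma (adjusted p = 0.0416 and 0.0424), and over all 14 the adjusted p ranged up to 0.21.

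CDC25A (ENSG00000164045, chromosome 3 from 48157146 to 48188402, minus strand) had an FPKM of 14.6, 15 and 14.5 in pcCon and 9.33, 7.12 and 13.6 in pcYY2. Samples 1 and 2 of pcYY2 lay far below the controls, and sample 3 lay just under the lowest of them. The log2 fold change of -0.54 was the lowest of the 10 genes, with a standard error of 0.209 and an adjusted p of 0.143. Without pcYY2 sample 3 the log2 fold change was -0.82 (adjusted p = 0.0326 from edgeR), and without pcYY2 sample 2 it was -0.35. DESeq2 on all samples called CDC25A as well, with an adjusted p of 0.0377.

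Promoters are shown because E2F factors are known to act on several of these genes, E2F1 itself included. The window from 250 bases before to 50 bases after an annotated start was taken from RefSeq (GRCh38.p14) for 7 of the 10 genes, and the promoters of CCND1, CCNE2 and CDK2 were not analysed here. The words TTTCCCGC, TTTGGCGC, TTTCGCGC and TTTGCCGC, forms of the E2F consensus, were searched on both strands. They occurred in 2 of the 10 windows of these 7 genes, 1 each of CDC25A and E2F1, and in 3.31% of the 35116 windows of all genes. The sequences are given 5′ to 3′ on the strand of the gene, with the words in capitals, for chr3:48188442-48188473 (CDC25A, minus strand, from -56 to -25 of the start) and chr20:33686386-33686430 (E2F1, minus strand, from -45 to -1).
CDC25A: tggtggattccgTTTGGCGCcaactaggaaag
E2F1: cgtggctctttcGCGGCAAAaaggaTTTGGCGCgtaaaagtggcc
In E2F1 the first word in capitals is TTTGCCGC read on the opposite strand, and it does not overlap the second. The word CGCCATNTT is the consensus that the study gives as shared by YY2 and YY1. It was in 0 of the 10 windows of the 7 genes and in 3.19% of all windows. This says only that these letters are not in the windows of these genes. Neither gene with an E2F word passed the test of the difference between pcYY2 and pcCon. Of the 10 windows of these 7 genes, 6 lie wholly within the gene, namely those of RB1, CDK4 and CCND3 and 1 of CDK6, so that the words were not searched upstream of the whole gene for RB1, CDK4 and CCND3.

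In 6 of the 10 genes the FPKM of the groups did not overlap and was lower in pcYY2, and in 0 it was higher without overlap. Over all tested genes these shares were 19.9% and 15.9%, but the 10 genes are not a set chosen independently of these data. Of these 6 genes, CDC25A was the gene in which a single pcYY2 sample moved the estimate by more than 1.5 times.

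**Figure D4:**
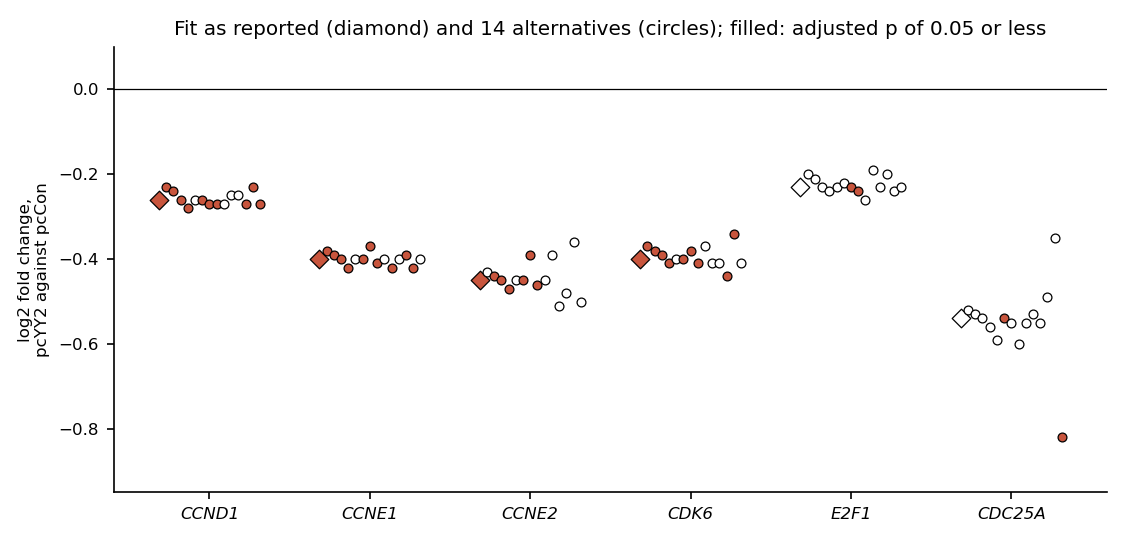
Log2 fold change, pcYY2 against pcCon, of the 6 genes whose groups do not overlap, in the fit as reported (diamond) and in 14 alternative fits (circles) that change the filter, scaling, replicate block or tool or leave out a sample. Filled symbols have an adjusted p of 0.05 or less. All values lie below 0, and those of CDC25A range from -0.82 to -0.35.

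The order of levels depends on the length by which reads are divided. By FPKM, CCND1 was highest in pcCon (58.7), followed by CDK4 (20.7), E2F1 (17.1), CDK6 (16.7), CDC25A (14.7), RB1 (14), CCNE1 (8.96), CDK2 (8.51), CCNE2 (6.58) and CCND3 (1.61). E2F1 and CDK6, CCNE1 and CDK2, and CDK2 and CCNE2 overlapped in their samples. The deposited FPKM, however, uses 15071 bases for CCND3, 11445 for CDK2 and 7495 for CDK4, which is 7.44, 5.11 and 4.02 times the length of the canonical transcript in GENCODE 44, but 2503 bases for E2F1, which is 0.93 times. With counts per kilobase of the canonical transcript, scaled to library size in the same way, a scale added after the values were seen, CCND1 (97.4 ± 1.4, SD, n = 3) and CDK4 (83.2 ± 4.79) led in pcCon, CDK2 came next (43.5 ± 7.67) and E2F1 was ninth in order (15.9 ± 0.75). In pcCon, CCND3 was lowest on both scales, at 12 ± 3.06 on the second, where it overlapped with E2F1. In pcYY2 it was lowest by FPKM, but per canonical length its mean (14.1 ± 2.28) lay above those of E2F1 (13.5), CDC25A (13.3) and CCNE2 (13.1), each overlapping its neighbour. Also in pcYY2, CDK4 (84.1 ± 5.69) and CCND1 (80.7 ± 3.25) overlapped on this scale. The share of CDK6 among both kinases was then 19.0% ± 1.39 in pcCon and 14.9% ± 0.402 in pcYY2, still without overlap, whereas the sum of both kinases, 103 ± 4.19 and 98.8 ± 6.81, overlapped. The sum of CCND1 and CCND3 was 109 ± 1.69 in pcCon and 94.9 ± 1.84 in pcYY2, or 0.867-fold in the means, without overlap. Changes of a single gene between groups do not depend on this length.

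The other genes of the pathway were examined in lists of 59 genes, of which 56 were tested, 5 were called higher and 1 lower. These 6 are 10.7% of the tested genes of the lists, close to the 9.37% called over all tested genes. The median log2 fold change of the 56 tested genes was 0.09. Cyclin A2, which takes over CDK2 in S phase, moved opposite to the E cyclins. CCNA2 (ENSG00000145386) had an FPKM of 43.1, 43.2 and 42.3 in pcCon and 62.5, 55.7 and 61.6 in pcYY2, a log2 fold change of 0.50 with a standard error of 0.0528 (edgeR quasi-likelihood, adjusted p = 0.00553). It was called in all 14 alternative fits.

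Of 7 CDK inhibitors 6 were tested and 0 were called in edgeR, while 3 had an unadjusted p under 0.05, which 28.9% of all tested genes had. CDKN1A, which encodes p21, had an FPKM of 15.1, 14.1 and 15 in pcCon and 15.8, 17.7 and 17.9 in pcYY2, without overlap but with an adjusted p of 0.0712. CDKN1B, which encodes p27, had 9.31, 10.2 and 10.3 in pcCon and 11.9, 11.6 and 11 in pcYY2, likewise without overlap and with an adjusted p of 0.0768. Of the 6 tested inhibitors, 3 were higher and 2 lower in pcYY2 without overlap, against 15.9% and 19.9% of all tested genes. CDKN2C was also higher, with a log2 fold change of 0.32 (edgeR adjusted p = 0.0636). The 2 lower, CDKN2A and CDKN2B, had log2 fold changes of -0.18 and -0.20 (edgeR adjusted p = 0.197 and 0.253). The list for protein turnover had 10 genes, of which 1 was called, or 10% against the 9.37% called over all tested genes. SKP2, the subunit that marks p27 for degradation, had an FPKM of 5.93, 6.11 and 5.94 in pcCon and 4.85, 5.03 and 4.61 in pcYY2, a log2 fold change of -0.30 (SE 0.0595, edgeR adjusted p = 0.0306), and it kept its call in 6 of 14 alternative fits. Without pcCon sample 1, 2 or 3, or pcYY2 sample 1 or 3, SKP2 was not called.

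None of the 11 other pocket proteins, E2F factors and DP partners was called, with 2 of them at an unadjusted p under 0.05 in edgeR, or 18.2% against the 28.9% of all tested genes. Their log2 fold changes lay between -0.17 and 0.24. RBL1, the p107 pocket protein, had a log2 fold change of 0.24 at an adjusted p of 0.16 and RBL2, the p130 protein, of -0.09 at an adjusted p of 0.392. TFDP1, the main partner of E2F factors, had an FPKM of 36.3, 36.9 and 25.9 in pcCon and 29.2, 29.4 and 28.4 in pcYY2, so that pcCon sample 3 lay below the pcYY2 group and the others above it.

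Of 7 genes for the CDK-activating kinase, the other CDC25 phosphatases and the inhibitory kinases, 1 was called. This is 14.3%, against the 9.37% called over all tested genes. CDC25C, which acts at entry into mitosis, had an FPKM of 3.42, 2.98 and 3.16 in pcCon and 4.17, 4.58 and 4.23 in pcYY2, a log2 fold change of 0.46 (SE 0.0881, edgeR adjusted p = 0.0272), which was opposite in sign to that of CDC25A. Without pcCon sample 1, 2 or 3, or pcYY2 sample 2 or 3, CDC25C was not called. Whether the changes of CDC25C and CDC25A differ was not tested.

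Among 21 textbook E2F-responsive genes of DNA replication and nucleotide synthesis, 3 were higher in pcYY2, 0 were lower and 18 did not pass. These 3 are 14.3% of the list, while over all tested genes 9.37% were called in either direction and 4.52% higher. The median log2 fold change of the 21 genes was 0.11. RRM2 and RRM1, the subunits of ribonucleotide reductase, had log2 fold changes of 0.39 (SE 0.049, edgeR adjusted p = 0.00834) and 0.28 (SE 0.039, edgeR adjusted p = 0.0116). RRM2 rose from an FPKM of 33.1, 32.3 and 35.0 to 42.2, 45 and 43.0. MCM7, a subunit of the replicative helicase, had a log2 fold change of 0.29 (SE 0.0414, edgeR adjusted p = 0.0127). RRM1 was not called without pcCon sample 2, and MCM7 was not called without pcCon sample 1 or 3. CCNE1 and CCNE2, which are E2F-responsive too, had the opposite sign to the genes called in this list.

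**Figure D5:**
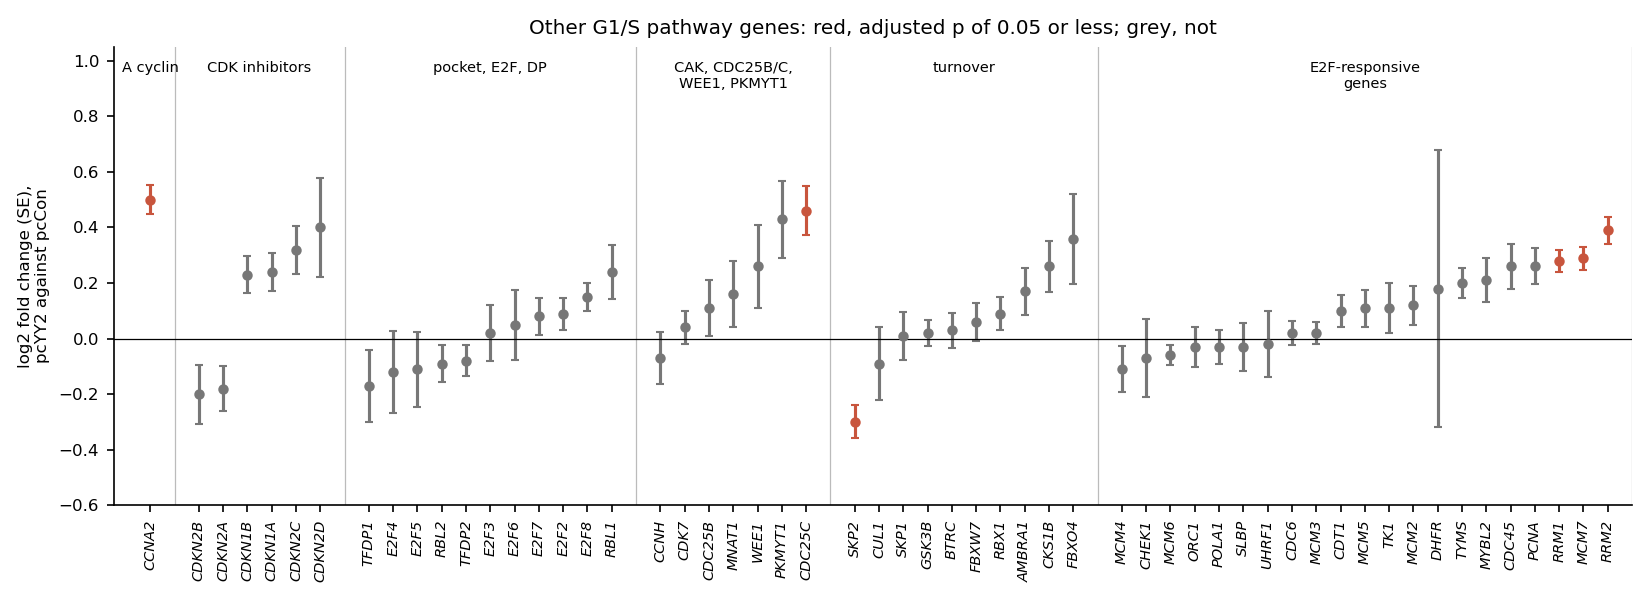
Log2 fold change, pcYY2 against pcCon, of the 56 tested genes of the pathway lists, grouped by role and sorted within a group, with the standard error. Red marks an adjusted p of 0.05 or less in edgeR. CCNA2, CDC25C, RRM1, MCM7 and RRM2 are red above 0 and SKP2 is red below 0.

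The profile most like that of CCNE1 over the 6 samples, by Pearson's correlation of log2(CPM + 1), was that of EZR (0.9996), followed by GARS (0.9957), PALD1 (0.9957), EPHA2 (0.9955) and ADAM19 (0.9950). All 5 were lower in pcYY2, with log2 fold changes between -0.58 and -0.38. In all, 368 of 12014 genes reached a correlation of 0.95, and since the 6 points fall into the groups, the correlations largely describe the difference between them.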

How the data were processed

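RNA-Seq libraries of polyA RNA from 3 pcCon and 3 pcYY2 samples of HCT116 cells were examined. According to the methods, the authors removed rRNA, adapter and low-quality reads, mapped the rest to GRCh38 with Tophat and obtained FPKM with Cufflinks. HTSeq is among the tools in the submitters' processing notes, with no role given. The deposited table holds counts, raw whole numbers per Ensembl gene, and FPKM, which the authors scaled to a fixed length per gene and to the total count (largest deviation 0.00064% over 10859 genes). The Cuffdiff output was not used here, and 0 columns lacked a sample.

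After TMM normalization, the quasi-likelihood test of edgeR (version 4.0.16, R 4.3.3) was applied to the counts of 12015 genes whose mean FPKM reached 1, with Benjamini-Hochberg adjustment over all of them and a threshold of 0.05. Standard errors were derived from the fold change and the F statistic. With 3 counts taken as a floor, which covers counting error only, the limit is 0.1014 to 0.1979 CPM. Every pair of libraries differed beyond counting error (lowest chi-square per degree of freedom 11.8). No replicate block was used, as the methods name no pairing. The code was tested on simulated data.

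The alternatives were other filters, RLE or upper quartile scaling, the replicate block, DESeq2 1.42.0, limma 3.58.1 on log2 FPKM with pseudocounts of 1 and 0.1, and leaving out each sample. Counts per canonical length, sums divided by TMM factors and alternatives for the pathway lists were added after seeing the data. The members, lists and motifs were chosen with earlier results of these data known. Named were every member, up to 5 called genes per pathway list, CDKN1A, CDKN1B, CCND2, RBL1, RBL2, TFDP1, YY2 and the 5 genes most correlated with the member of smallest p. Other genes of the text were named after their values were seen. No protein sequences were used here. Strands and transcript lengths come from GENCODE 44.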

Additional observations from a re-analysis of the deposited data

How the results depend on the processing

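Of the 4 genes called lower, 0 passed in edgeR with the replicate block (lowest adjusted p of a member 0.0574, and 6 members at an unadjusted p under 0.05), and between 0 and 3 passed when a sample was left out. The pathway genes called went from 6 to 1 with the block, where CCNA2 remained (adjusted p = 0.0453), and to between 3 and 7 without a sample. Over all tested genes, 1126 calls became 101 with the block and 285 to 805 without a sample. Samples with the same number did not deviate together (correlations from -0.0413 to -0.0259), so the numbers do not show a pairing. The other fits gave 3 to 5 members called lower, and a filter at a mean FPKM of 0.1 was the one that lost CCNE2 (adjusted p = 0.055). In no fit was a member called higher. The uncalled log2 fold change of CCND3 ranged from 0.11 to 0.47. Log2 fold changes that changed sign were all uncalled and near 0. That of CDK2 was 0.008 and 0.0013 with lower filters and from -0.13 to 0.12 without a sample, that of CDK4 from -0.021 to 0.08 and that of RB1 from -0.0092 to 0.15. The cause of these shifts was not tested. Fits without a sample hold fewer samples, and the fit with the block has fewer degrees of freedom. Upper quartile scaling moved the median of all genes by less than 0.1 (to -0.016) and changed no member's call. With 3 samples a group, exact permutation tests cannot go below 0.1.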
